A study of Rattus norvegicus with 9 samples.

Results

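The genes of cholesterol synthesis, uptake and efflux were followed in RBL-2H3 cells, which derive from a basophilic leukemia of the rat and stand in for mast cells (MCs). The set holds 32 genes, matched by gene symbol, of the 18006 genes that had a value in every sample. It was divided into 8 enzymes of early synthesis, from acetyl-CoA units to squalene, and 10 enzymes of late synthesis, from squalene to cholesterol. The rest were 5 regulators of the SREBP pathway and 9 genes called efflux and transport genes below. These 9 cover sterol efflux, transport and storage, and also the regulatory genes Nr1h2, Nr1h3 and Mylip. No lipoprotein receptor gene is among the 32. All 32 had a value. RNA was sequenced in 9 samples, 3 in each of 3 groups. The IgE/DNP samples were sensitized with anti-DNP IgE at 50 ng/mL for 12 h and then stimulated with the antigen DNP-HSA at 100 ng/mL for 4 h. The PF samples were sensitized and stimulated in the same way and received an agent named only as PF for 1 h before the antigen. PF is not identified in the labels or described in the paper, and the stimulation time of the 3 PF samples is given as 4 h in one field and as 4, 5 and 6 h in another. The Ctrl samples are called untreated in one field, while a second field gives the same sensitization and stimulation for every sample, so whether these cells were given IgE is unclear. All groups were grown in serum-containing medium. Nothing in the labels says that the samples of a group came from separate cultures, so p-values measure the spread between these samples only, which may be technical.

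Cells make cholesterol from acetyl-CoA through the mevalonate pathway, which yields isoprenoids and then squalene, and a chain of endoplasmic reticulum enzymes closes and trims squalene to the sterol. When sterol in the endoplasmic reticulum runs low, SCAP carries the transcription factors SREBP1 and SREBP2 to the Golgi for cleavage, and their released parts raise transcription of the synthesis enzymes; the INSIG proteins hold SCAP back when sterol is plentiful. When sterol is in excess, oxysterols switch on the LXR receptors, whose targets include the efflux pumps ABCA1 and ABCG1 and the ubiquitin ligase MYLIP, which marks lipoprotein receptors for degradation. In MCs, membrane cholesterol is known as a component of the lipid domains through which the IgE receptor signals.

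The promoters of the synthesis genes are shown first, because these genes are known as a co-regulated set and SREBP is known to act beside NF-Y, a factor that binds the letters CCAAT. RefSeq promoter windows of build GRCr8, from 250 bases before to 50 bases after a gene start, were given for 27 of the 32 genes (28 windows, since Srebf1 has a pair). Pmvk, Fdft1, Sqle, Stard4 and Abcg1 had no window. CCAAT was found on either strand in 20 of the 28 windows (71.4%), against 37.5% of all 33469 windows and 38.8% of the windows of genes with a mean of at least 1 FPKM (fragments mapped, relative to transcript length and to the mapped total, the unit of expression used below). It was found in 12 of the 15 windows of synthesis enzymes (80%), in 5 of the 6 windows of SREBP regulators (83.3%) and in 3 of the 7 windows of efflux and transport genes (42.9%). Stretches are given 5′ to 3′ on the strand of the gene, for 5 synthesis enzymes and for Insig1, whose expression is described below. These genes are a selection: all hold CCAAT and were called higher in PF vs IgE/DNP as deposited. The windows of Acat2, Cyp51 and Dhcr7 held no CCAAT on either strand, and these genes were called higher there too. Tm7sf2 and Npc2 also held CCAAT and were called higher. Sc5d, Srebf2 and Soat1 held CCAAT and were called lower there. Mvk, Nsdhl, Lss, Msmo1, Insig2 and Srebf1 held CCAAT and were not called there, and Hsd17b7 and Mylip held it and were not tested. A link between CCAAT and expression was not tested. Capitals mark CCAAT or its complement ATTGG and, in Idi1 only, a match to the AP-1 letters TGANTCA. Positions count from the gene start. The stretch of Hmgcs1 is chr2:53382106-53382185, plus strand, from -198 to -119. That of Mvd is chr19:67414995-67415019, minus strand, from -45 to -21. That of Fdps is chr2:176804887-176804956, minus strand, from -140 to -71. That of Idi1 is chr17:66547545-66547636, minus strand, from -112 to -21. That of Ebp is chrX:16971337-16971391, plus strand, from -125 to -71. That of Insig1 is chr4:8057948-8057972, minus strand, from -203 to -179.
Hmgcs1: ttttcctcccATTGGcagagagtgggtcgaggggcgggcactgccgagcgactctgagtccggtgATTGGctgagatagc
Mvd: cccgtcgcctATTGGacggcacggg
Fdps: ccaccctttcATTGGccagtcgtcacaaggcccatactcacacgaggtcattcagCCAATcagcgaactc
Idi1: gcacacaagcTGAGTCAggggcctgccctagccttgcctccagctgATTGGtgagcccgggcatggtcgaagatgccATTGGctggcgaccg
Ebp: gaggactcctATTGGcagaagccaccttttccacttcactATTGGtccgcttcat
Insig1: ccctcctcccATTGGctcccgcggc

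Hmgcs1, Fdps, Idi1 and Ebp each held a pair of CCAAT matches within the stretch shown. The SP1 letters GGGCGG, searched on both strands, were in 23 of the 28 windows (82.1%), against 33.1% of all windows and 61.3% of those of genes with a mean of at least 1 FPKM. The AP-1 letters TGANTCA were in 2 of the 28 windows (7.14%), those of Idi1 and Msmo1, against 7.33% of all windows and 4.90% of those of genes with a mean of at least 1 FPKM. The EGR letters GCGNGGGCG, which can share bases with GGGCGG, were in the windows of Dhcr7, Scap and Npc2 (10.7%), against 4.98% of all windows and 9.26% of those of genes with a mean of at least 1 FPKM. The E-box CACGTG was in 4 windows (14.3%), against 6.42% of all and 9.64% of those of genes with a mean of at least 1 FPKM. Neither the sterol response element letters TCACNCCAC (1.12% of all windows) nor the LXR direct repeat DR4 (0.00598% of all windows) matched any of the 28 windows, which says only that these exact letters are not there.

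In the Ctrl samples the synthesis enzymes were expressed at far higher levels than the genes of efflux. FPKM is a value per length, so levels can be set side by side between genes. The median Ctrl level was 87.8 FPKM over the 18 synthesis enzymes and 25.5 FPKM over the 5 SREBP regulators. It was 9.46 FPKM over the 9 efflux and transport genes. Over all genes with a Ctrl mean of at least 1 FPKM it was 14.7 FPKM. The medians of the synthesis enzymes and of the efflux and transport genes include members under 1 FPKM, which the last median leaves out. Fdps, farnesyl diphosphate synthase, had a Ctrl mean of 1096 ± 28.8 FPKM (SD, n = 3) and was the 88th highest of the 18006 genes. Cyp51, lanosterol demethylase, followed at 403 ± 1.03 FPKM and Msmo1, methylsterol monooxygenase, at 313 ± 3.18 FPKM. Of the 32 genes, 10 had a Ctrl mean of at least 100 FPKM, as did 918 of all genes. These 10 comprised 8 synthesis enzymes, Insig1 and Npc2.

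The other end of the range was taken by Hsd17b7 and by Nr1h3 and Abca1, genes of the LXR arm. Abca1, the pump that loads cholesterol onto apolipoprotein A-I, lay between 0.04 and 0.07 FPKM in the Ctrl samples, between 0.04 and 0.06 FPKM in the IgE/DNP samples and between 0.03 and 0.08 FPKM in the PF samples. Nr1h3, which encodes LXR alpha, was listed at 0 in 4 of the 9 samples and had at most 0.10 FPKM in the others. These genes were at or near 0 in every group, and the groups overlapped. Nr1h2, which encodes LXR beta, was the LXR gene that was expressed, with a Ctrl mean of 33.3 ± 0.808 FPKM. Abcg1, the second efflux pump, had a Ctrl mean of 3.60 ± 0.181 FPKM and Mylip one of 1.01 ± 0.240 FPKM. Hsd17b7, a ketosteroid reductase of late synthesis, was listed at 0 in 8 of the 9 samples and at 0.04 FPKM in Ctrl sample 2. Abca1, Nr1h3 and Hsd17b7 did not reach 1 FPKM in any sample and were not tested in any comparison, and Mylip was tested in PF vs Ctrl only.

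**Figure D1:**
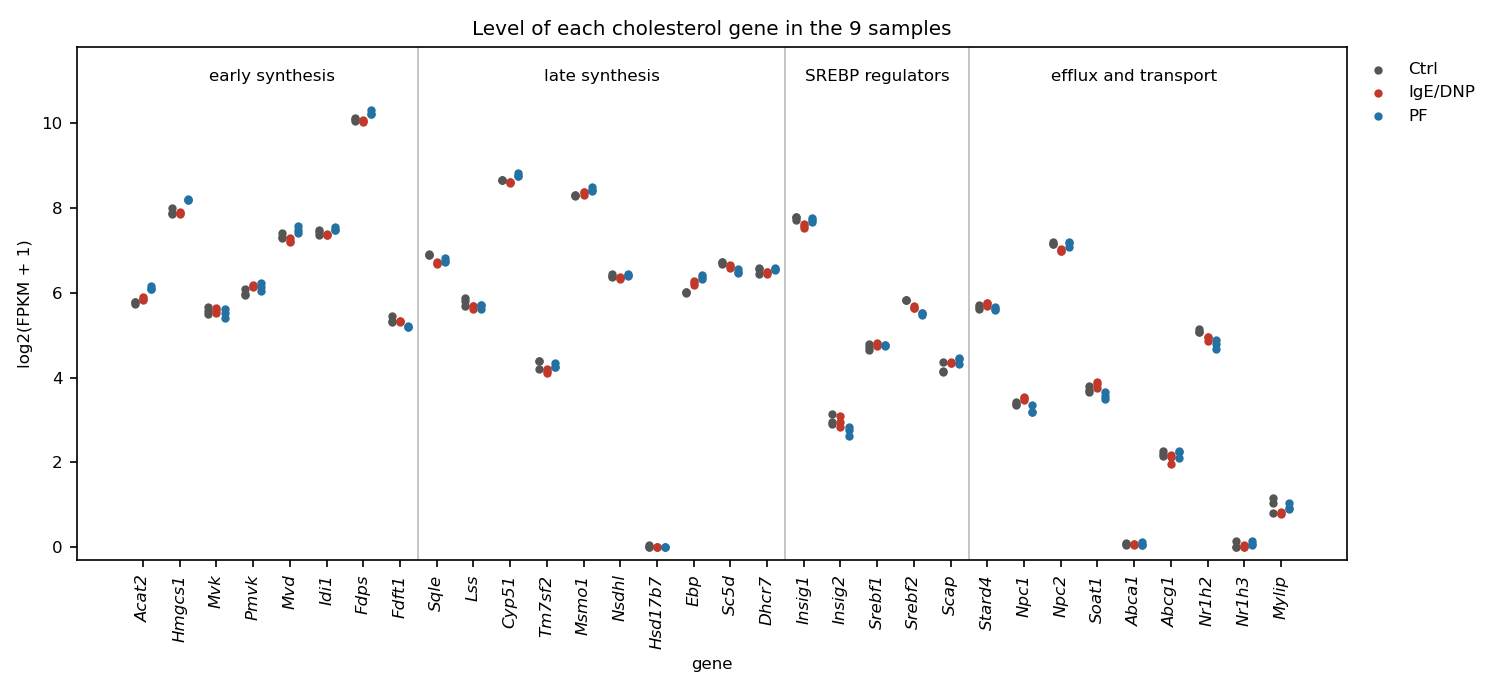
Level of each of the 32 genes as log2(FPKM + 1) in the 9 samples (1 point per sample, coloured by group), with the genes ordered by role along the x axis. The 3 groups lie close together for nearly every gene, Fdps is the highest, with a Ctrl mean of 1096 FPKM, and Hsd17b7, Abca1 and Nr1h3 lie at or near 0 in all groups.

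The samples were first checked against their labels. Of the 10 markers of MCs and basophils, 10 had a mean of at least 1 FPKM, and their summed level lay between 5484 and 5805 FPKM in all 9 samples, the largest part from Srgn. Kit, Cpa3, Tph1, Mcpt8 and Gata2 had lower means in the order Ctrl, IgE/DNP, PF. Tph1 had means of 341, 259 and 210 FPKM, Mcpt8 of 18.6, 9.67 and 7.61 FPKM and Gata2 of 391, 370 and 294 FPKM. Ms4a2 rose in that order, at 431, 461 and 476 FPKM, as did Srgn, at 2780, 2843 and 2914 FPKM. Fcer1a and Fcer1g were highest in PF, and Hdc was highest in IgE/DNP. The part of these marker differences in the results below was not tested. Of the markers of fibroblasts and hepatocytes with a value, none had a mean of 1 FPKM, and the same held for B cells. Cd68 was the 1 of 3 macrophage markers and Cd3e the 1 of 4 T cell markers to reach it, and the summed T cell level was at most 9.61 FPKM in any sample. The labels also give peripheral blood as the tissue, while the cells are a line. Egr1, an immediate early gene, had 3.65 ± 0.329 FPKM in Ctrl, 169 ± 9.59 FPKM in IgE/DNP and 226 ± 10.7 FPKM in PF (SD, n = 3). Il4, a cytokine of activated MCs, had 2.33 ± 0.118 FPKM, 12.3 ± 0.514 FPKM and 3.49 ± 0.856 FPKM in the same groups. The deposited values summed to 573023 to 591539 FPKM in the Ctrl and IgE/DNP samples and to 610206 to 630069 FPKM in the PF samples, a difference that bears on every small change in PF given below.

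Few of these genes differed between the IgE/DNP and Ctrl samples, and all the changes were small. Antigen and IgE sensitization cannot be told apart here, since the Ctrl labels conflict on IgE. In IgE/DNP vs Ctrl, 7 of the 28 tested members passed the test (25%), 2 higher and 5 lower, while 29.2% of all 10392 genes tested passed it. The share among the members was thus close to the background. The test was limma on log2(FPKM + 1) with Benjamini-Hochberg adjustment over all genes and a threshold of 0.05, run on genes that reached 1 FPKM in 3 or more of the 6 samples, and the added 1 shrinks the fold change of weakly expressed genes. Because the RNA came from whole cultures, a change in RNA per cell and a change in the share of cells that carry it cannot be told apart. No member changed by as much as 0.5 on the log2 scale. Of all genes tested, 2.39% were called higher with at least that change and 1.33% were called lower with it. The 7 calls stood with the values as deposited, after scaling by median ratios, which aligns the middle of each sample's genes, and after scaling to equal sums, which gives each sample the same summed FPKM. Both scalings added Acat2 as a further call, higher at 0.11 and 0.12, against 0.10 and uncalled as deposited. The exact two-sided permutation test of a single gene cannot give less than p = 0.1 with 3 samples against 3, and every call in this comparison reached that value. The groups did not overlap for 14 of the 28 members, against 45.8% of all genes tested.

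Among the 17 synthesis enzymes tested, 2 were higher, 1 was lower and 14 did not pass. Sqle, squalene epoxidase, an oxygen-requiring enzyme that opens the late pathway, had 118.58, 119.49 and 118.61 FPKM in the Ctrl samples, 103.20, 101.68 and 104.47 FPKM in the IgE/DNP samples and 105.30, 106.47 and 111.57 FPKM in the PF samples. All Ctrl samples lay above all stimulated samples, and the IgE/DNP and PF samples did not overlap either. Sqle fell by 0.20 on the log2 scale in IgE/DNP vs Ctrl (SE 0.0292, adjusted p = 0.0018 by limma), a mean FPKM difference of -13.3%. Ebp, the sterol isomerase of late synthesis, moved the other way, with 63.84, 62.46 and 63.43 FPKM in Ctrl and 76.14, 71.59 and 74.01 FPKM in IgE/DNP. It rose by 0.22 (SE 0.0350, adjusted p = 0.0028 by limma), and the groups did not overlap. Pmvk, phosphomevalonate kinase, rose by 0.16 (SE 0.0437, adjusted p = 0.029 by limma), from a mean of 63.5 to 70.8 FPKM. This call was lost without any 1 of 5 of the 6 samples, Ctrl sample 2 being the exception, with fold changes of 0.13 to 0.17 and adjusted p-values of 0.0576 to 0.0905.

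Hmgcs1, the HMG-CoA synthase that opens the mevalonate pathway proper, did not pass. It had 254.78, 230.33 and 237.00 FPKM in the Ctrl samples, 236.56, 230.82 and 237.58 FPKM in the IgE/DNP samples and 288.93, 289.68 and 297.57 FPKM in the PF samples. The Ctrl and IgE/DNP samples overlapped, and the log2 fold change of -0.03 had a 95% interval of -0.13 to 0.06. The PF samples lay above the other 6. The summed level of the 18 synthesis enzymes was 3124 ± 33.1 FPKM in Ctrl and 3057 ± 39.6 FPKM in IgE/DNP, a difference of -2.16%. The median log2 fold change of the 17 tested was -0.05, beside -0.01 over all genes tested.

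Of the SREBP regulators, Insig1 and Srebf2 fell in IgE/DNP vs Ctrl and the other 3 did not pass. Insig1, itself a known SREBP target, had 218.52, 218.42 and 209.35 FPKM in the Ctrl samples, 189.09, 184.84 and 195.68 FPKM in the IgE/DNP samples and 204.36, 208.98 and 218.29 FPKM in the PF samples. It was lowest in the IgE/DNP samples, which overlapped with neither other group, while the Ctrl and PF samples overlapped. Insig1 fell by 0.18 in IgE/DNP vs Ctrl (SE 0.0348, adjusted p = 0.0064 by limma). Srebf2, which encodes SREBP2, the form tied most closely to cholesterol synthesis, had 55.51, 56.21 and 55.47 FPKM in Ctrl, 48.68, 50.92 and 49.06 FPKM in IgE/DNP and 43.26, 45.17 and 45.00 FPKM in PF. The 3 groups did not overlap and stepped down in that order. Srebf2 fell by 0.17 in IgE/DNP vs Ctrl (SE 0.0340, adjusted p = 0.0081 by limma).

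Srebf1, which encodes SREBP1 and is tied more closely to fatty acid synthesis, had 24.26, 26.58 and 25.53 FPKM in Ctrl, 26.66, 27.37 and 25.88 FPKM in IgE/DNP and 26.20, 25.88 and 26.38 FPKM in PF. The 3 groups overlapped, and Srebf1 passed the test in no comparison. Its log2 fold change in IgE/DNP vs Ctrl was 0.06, with a 95% interval of -0.04 to 0.17. Insig2, the second INSIG, was the least expressed of the regulators, with 6.44, 6.68 and 7.88 FPKM in Ctrl, 6.76, 7.57 and 6.17 FPKM in IgE/DNP and 6.17, 5.15 and 5.81 FPKM in PF. The Ctrl and IgE/DNP samples overlapped, at a log2 fold change of -0.03 with a 95% interval of -0.24 to 0.18. Scap had means of 17.7 FPKM in Ctrl and 19.3 FPKM in IgE/DNP, and these groups overlapped.

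Of the 6 efflux and transport genes tested in IgE/DNP vs Ctrl, Npc2 and Nr1h2 fell and 4 did not pass. Npc2, the soluble lysosomal protein that hands cholesterol to the membrane protein NPC1, was the most abundant of the group, with 142.35, 144.96 and 141.15 FPKM in Ctrl, 129.50, 125.31 and 124.87 FPKM in IgE/DNP and 144.11, 144.79 and 133.63 FPKM in PF. It fell by 0.17 (SE 0.0309, adjusted p = 0.0047 by limma) and the PF samples lay above the IgE/DNP samples. Nr1h2 fell by 0.17 (SE 0.0436, adjusted p = 0.020 by limma), from 33.3 to 29.5 FPKM. The Nr1h2 call was lost without Ctrl sample 3, at -0.15 and an adjusted p of 0.0550, and without IgE/DNP sample 2, at -0.14 and an adjusted p of 0.0698. Abcg1 had 3.79, 3.43 and 3.58 FPKM in Ctrl, 3.54, 3.37 and 2.89 FPKM in IgE/DNP and 3.70, 3.32 and 3.84 FPKM in PF, with overlap throughout. Its log2 fold change in IgE/DNP vs Ctrl was -0.11, with a 95% interval of -0.30 to 0.08. Mylip had 1.07, 1.22 and 0.75 FPKM in Ctrl, 0.71, 0.78 and 0.75 FPKM in IgE/DNP and 1.07, 0.90 and 0.87 FPKM in PF. The IgE/DNP samples overlapped with Ctrl and lay below the PF samples, at levels too low for the filter. The median log2 fold change of the 6 tested was -0.02, and the summed level of all 9 genes was 252 ± 2.29 FPKM in Ctrl and 236 ± 1.54 FPKM in IgE/DNP, a sum made up largely of Npc2.

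**Figure D2:**
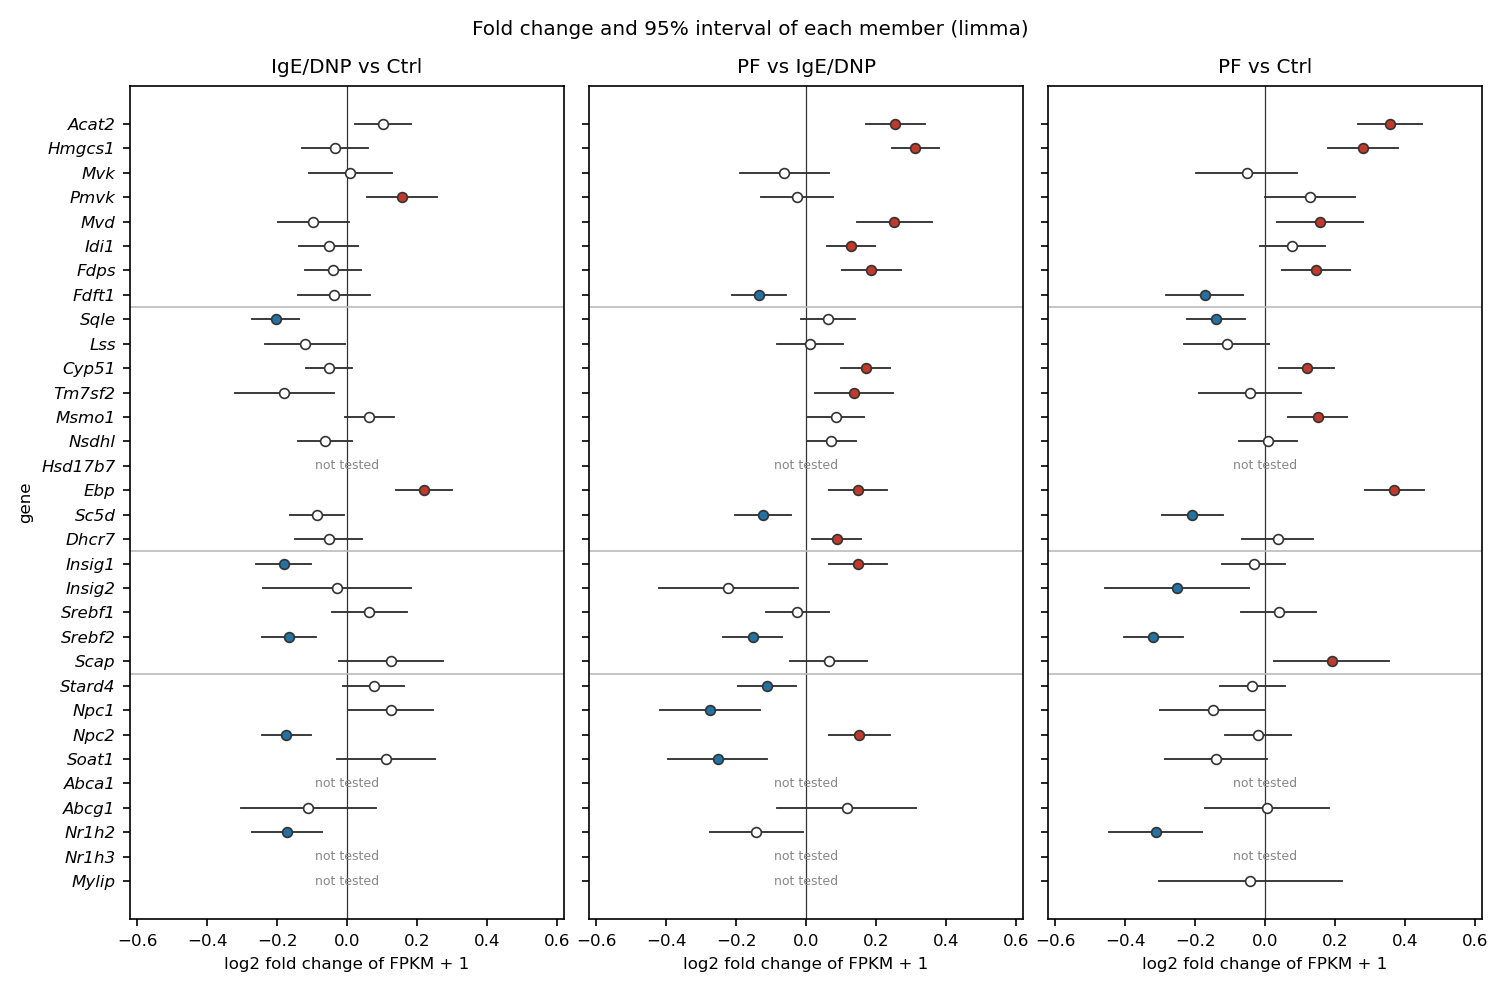
Log2 fold change of FPKM + 1 (x axis) of each gene (y axis, ordered by role, with lines between the groups of genes) in the 3 comparisons, with 95% intervals from limma. Filled points passed an adjusted p of 0.05 (red higher, blue lower) and open points did not, and all fold changes lie within 0.5 of 0, the largest being 0.37 for Ebp in PF vs Ctrl.

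PF vs IgE/DNP asks what differed in antigen-stimulated cells that had received PF. It shares its IgE/DNP samples with the comparison above, so the values of each comparison are given side by side and not set against each other. The early enzymes Acat2, Hmgcs1, Mvd and Fdps were higher in PF, by 13.9% to 24.3% in mean FPKM, and Npc1 and Soat1, genes of lysosomal export and sterol storage, were lower. In all, 17 of 28 members passed (60.7%), 11 higher and 6 lower, against 48.8% of 10329 genes tested, of which 18.1% were higher and 30.7% lower. Among the members 39.3% were thus called higher and 21.4% lower. The groups did not overlap for 20 of the 28, against 57.6% of all genes tested. No member changed by 0.5 or more, while 1.52% of all genes were called higher and 10.7% lower with such a change. The split of called members depended on how the samples were scaled to each other: it was 14 higher and 2 lower after scaling by median ratios, where 26.7% of all genes tested were higher and 25.2% lower, and 4 higher and 10 lower after scaling to equal sums, where the shares were 8.42% and 41.7%. Over all genes the median log2 fold change was -0.04 as deposited, 0.02 with median ratios and -0.13 with equal sums. The members called the same way under all 3 scalings were Acat2, Hmgcs1, Mvd and Fdps, all higher and all early enzymes, and Npc1 and Soat1, both lower and both efflux and transport genes. None of these 6 calls was lost when any 1 sample was left out. Over all 15 alternative settings, Acat2, Hmgcs1, Mvd, Fdps and Npc1 were called in every one and Soat1 in 14.

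Hmgcs1, with the sample values given above, had the largest rise, at 0.31 (SE 0.0295, adjusted p = 4.51e-05 by limma), or a mean FPKM difference of 24.3%, and lay between 0.21 and 0.38 under the alternatives. Acat2, the cytosolic acetoacetyl-CoA thiolase, which is not the sterol acyltransferase of similar name, had 56.45, 58.48 and 56.35 FPKM in IgE/DNP and 66.68, 70.99 and 67.30 FPKM in PF. It rose by 0.25 (SE 0.0373, adjusted p = 0.00058 by limma) with no overlap. Mvd, mevalonate diphosphate decarboxylase, had 156.81, 146.98 and 148.72 FPKM in IgE/DNP and 179.07, 191.27 and 169.71 FPKM in PF, a rise of 0.25 (SE 0.0471, adjusted p = 0.0021 by limma). Fdps, which makes farnesyl diphosphate for sterols and for protein prenylation, had 1066.80, 1043.28 and 1085.49 FPKM in IgE/DNP and 1191.82, 1265.27 and 1181.76 FPKM in PF. It rose by 0.19 (SE 0.0370, adjusted p = 0.0030 by limma). Under the alternatives the fold change lay between 0.16 and 0.32 for Acat2, 0.15 and 0.32 for Mvd and 0.09 and 0.25 for Fdps, the lowest being with equal sums. These 4 enzymes were higher in every PF sample than in any IgE/DNP sample.

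The early pathway did not move as a block. Idi1, the isomerase between Mvd and Fdps, rose by 0.13 (adjusted p = 0.0069 by limma) as deposited and was at 0.03, uncalled, with equal sums. Mvk and Pmvk, the kinases between Hmgcs1 and Mvd, had log2 fold changes of -0.06 and -0.03 and overlapped between the groups, and both were called lower with equal sums, at -0.16 and -0.12. Fdft1, squalene synthase, the enzyme that commits farnesyl diphosphate to sterols, had 38.99, 39.14 and 39.53 FPKM in IgE/DNP and 35.31, 36.12 and 35.46 FPKM in PF. It fell by 0.13 (SE 0.0342, adjusted p = 0.010 by limma) as deposited, and with median ratios its value of -0.07 was not called. Neighbouring steps on either side of farnesyl diphosphate, Fdps and Fdft1, thus moved in opposite directions as deposited.

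In the late pathway 4 of the 9 enzymes tested were higher and 1 was lower as deposited. Cyp51 rose by 0.17 (SE 0.0311, adjusted p = 0.0019 by limma), from 389 to 438 FPKM, and Ebp by 0.15 (SE 0.0371, adjusted p = 0.0098 by limma), from 73.9 to 82.0 FPKM. Both lay above the IgE/DNP samples in every PF sample, and both were uncalled with equal sums, at 0.07 and 0.05. Tm7sf2, a sterol reductase, at 0.14, and Dhcr7, the reductase that acts on dehydrocholesterol, at 0.09, were called with all 6 samples and lost the call without any 1 of the 6, with adjusted p-values of 0.0524 to 0.148 and of 0.0570 to 0.131. Dhcr7 was at -0.01 with equal sums. Sc5d, the sterol desaturase, fell by 0.12 (adjusted p = 0.019 by limma), and was uncalled with median ratios, at -0.06, and without either of IgE/DNP samples 1 and 2 or PF samples 1 and 2, at -0.12 to -0.11 and adjusted p-values of 0.0512 to 0.0754. Sqle at 0.06, Msmo1 at 0.09, Nsdhl at 0.07 and Lss at 0.01 did not pass as deposited, and with median ratios Sqle, Msmo1 and Nsdhl were called higher, at 0.13, 0.15 and 0.13. Over the 17 synthesis enzymes, 9 were higher and 2 lower as deposited, 12 and 0 with median ratios, and 4 and 4 with equal sums. The median was 0.09 as deposited, 0.15 with median ratios and -0.01 with equal sums. The summed synthesis level was 3057 ± 39.6 FPKM in IgE/DNP and 3396 ± 53.2 FPKM in PF, a difference of 11.1% as deposited, with 13.9% for the early and 6.98% for the late enzymes. These sums were not scaled. Over all genes the deposited values also summed to more in PF, with a median of 616992 FPKM against 578291 FPKM in IgE/DNP.

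Among the regulators in PF vs IgE/DNP, Insig1 rose by 0.15 (SE 0.0365, adjusted p = 0.0091 by limma) and Srebf2 fell by 0.15 (SE 0.0368, adjusted p = 0.0082 by limma). Insig1 was uncalled with equal sums, at 0.05, and Srebf2 with median ratios, at -0.09. Insig2 had a log2 fold change of -0.22 with a 95% interval of -0.42 to -0.02 and an adjusted p of 0.063 by limma, and was called lower with equal sums, at -0.31. Srebf1, at -0.03, and Scap, at 0.06, overlapped between the groups.

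The efflux and transport genes had 1 call higher and 3 lower of 6 tested. Npc1, the lysosomal membrane protein that exports cholesterol, had 9.21, 9.35 and 9.81 FPKM in Ctrl, 10.63, 10.40 and 10.18 FPKM in IgE/DNP and 8.11, 8.06 and 9.14 FPKM in PF. The PF samples lay below the other 6. Npc1 fell by 0.27 in PF vs IgE/DNP (SE 0.0626, adjusted p = 0.0062 by limma), a mean FPKM difference of -18.9%. Soat1, the acyltransferase that esterifies cholesterol for storage, had 12.42, 13.89 and 13.31 FPKM in IgE/DNP and 11.58, 10.34 and 10.85 FPKM in PF. It fell by 0.25 (SE 0.0622, adjusted p = 0.0091 by limma). Under the alternatives its log2 fold change lay between -0.34 and -0.17. The weakest value was that of the fit with PF sample 1 alone, described below. Npc2, the partner of Npc1, rose by 0.15 (SE 0.0389, adjusted p = 0.011 by limma) as deposited and was uncalled with equal sums, at 0.05, so that the members of this lysosomal pair had opposite signs under all 3 scalings. Stard4, a cytosolic sterol carrier, fell by 0.11 (adjusted p = 0.031 by limma), a call that was lost with median ratios, at -0.05, and without either of IgE/DNP samples 2 and 3 or PF samples 1 and 2, with adjusted p-values of 0.0736 to 0.103. Nr1h2, at -0.14, and Abcg1, at 0.12, did not pass, and Nr1h2 was called lower with equal sums, at -0.24.

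The synthesis enzymes were set beside the efflux and transport genes by their medians, as a description without a test. In PF vs IgE/DNP the median log2 fold change was 0.09 over 17 synthesis enzymes and -0.13 over 6 efflux and transport genes. These 6 were Stard4, Npc1, Npc2, Soat1, Abcg1 and Nr1h2, of which only Abcg1 encodes an efflux pump. The gap was 0.21, which a common scaling of all genes of a sample leaves nearly as it is by construction. Without the filter on low values, which brings back Abca1, Nr1h3 and Mylip, the gap was 0.09. In PF vs Ctrl the gap was 0.12, and 0.09 without the filter. In IgE/DNP vs Ctrl it was -0.03. With the efflux group limited to Abca1, Abcg1, Nr1h2, Nr1h3 and Mylip, of which only Abcg1 and Nr1h2 could be tested in PF vs IgE/DNP, its median was -0.01 in that comparison.

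**Figure D3:**
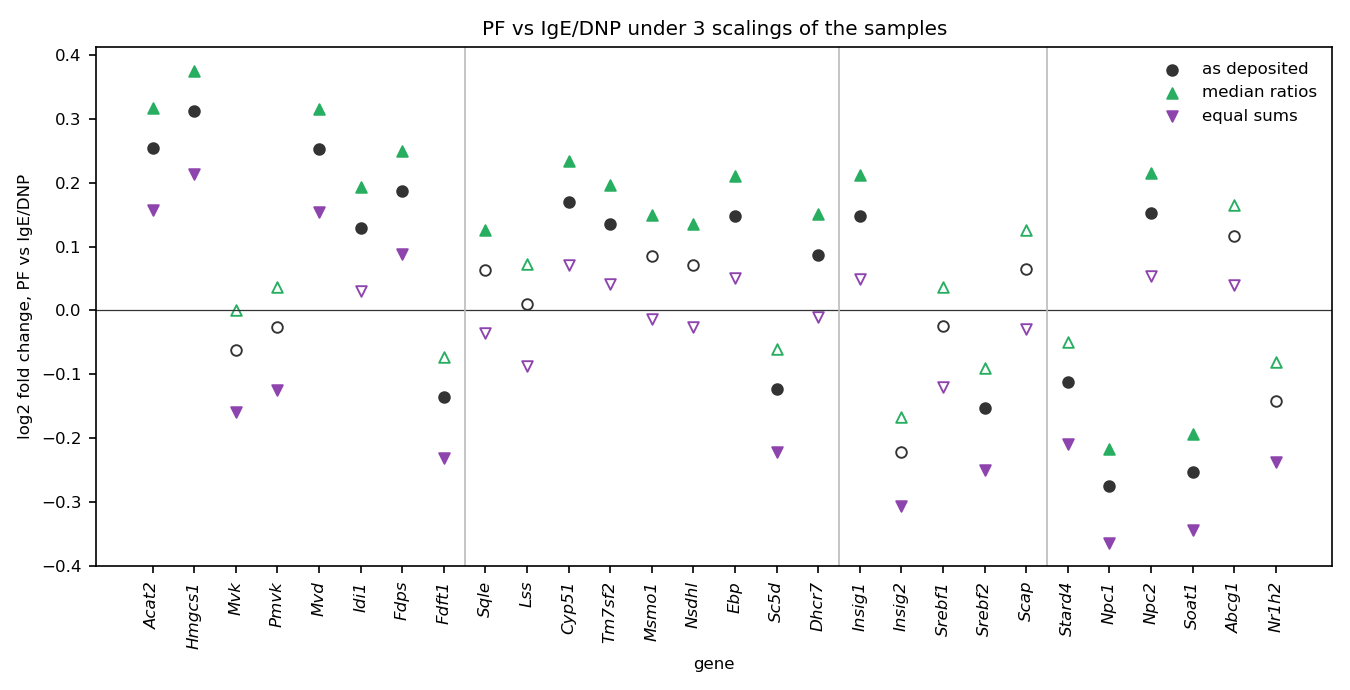
Log2 fold change of each tested gene in PF vs IgE/DNP (y axis) with the values as deposited (circles), after scaling by median ratios (upward triangles) and after scaling to equal sums (downward triangles), with genes ordered by role on the x axis. Filled symbols passed an adjusted p of 0.05, and Acat2, Hmgcs1, Mvd, Fdps, Npc1 and Soat1 are filled with the same sign under all 3.

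PF vs Ctrl differs in antigen, in PF and perhaps in IgE sensitization, since the Ctrl labels conflict. In it 14 of 29 members passed (48.3%), 8 higher and 6 lower. Of 10361 genes tested 57.7% passed, 23.1% higher and 34.6% lower. The groups did not overlap for 13 of the 29, against 64.8% of all genes tested. No member changed by 0.5 or more, while 3.84% of all genes were called higher and 14% lower with such a change. With median ratios the members split 10 higher and 3 lower, against 30.4% and 29.1% of all genes tested, and with equal sums 3 higher and 11 lower, against 15.2% and 41.7%. This comparison shares its samples with the other 2. The calls that kept their direction under all 3 scalings were Acat2, Ebp and Hmgcs1, higher, and Nr1h2, Sc5d and Srebf2, lower, and none of these was lost when any 1 sample was left out. Calls made under 1 other scaling only were Idi1 and Pmvk, higher with median ratios, and Insig1, Lss, Npc1, Npc2 and Soat1, lower with equal sums. Ebp rose by 0.37 (SE 0.0371, adjusted p = 6.21e-05 by limma), with 84.34, 81.95 and 79.78 FPKM in the PF samples. Its levels stepped up from Ctrl to IgE/DNP to PF with no overlap between neighbours. Acat2 had 51.90, 53.67 and 53.76 FPKM in Ctrl and rose by 0.36 (SE 0.0403, adjusted p = 0.00012 by limma). Hmgcs1 rose by 0.28 (SE 0.0438, adjusted p = 0.00075 by limma).

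Srebf2 had the largest fall among the members in PF vs Ctrl, at 0.32 on the log2 scale (SE 0.0374, adjusted p = 0.00015 by limma), a mean FPKM difference of -20.2%. Its level was thus lowest in the group in which Hmgcs1 and Acat2 were highest. Nr1h2, with 32.76, 32.94 and 34.24 FPKM in Ctrl and 26.69, 28.63 and 24.65 FPKM in PF, fell by 0.31 (SE 0.0577, adjusted p = 0.0018 by limma). Sc5d, with 105.67, 104.55 and 101.47 FPKM in Ctrl and 87.93, 88.54 and 92.85 FPKM in PF, fell by 0.21 (SE 0.0381, adjusted p = 0.0017 by limma). For these 3 genes the groups did not overlap.

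The other calls in PF vs Ctrl depended on scaling. As deposited, Mvd at 0.16, Fdps at 0.15, Cyp51 at 0.12, Msmo1 at 0.15 and Scap at 0.19 were called higher and were uncalled with equal sums, and Fdft1 at -0.17, Sqle at -0.14 and Insig2 at -0.25 were called lower and were uncalled with median ratios. Mvd and Scap were called although their Ctrl and PF samples overlapped. The Scap call was lost without Ctrl sample 1 or 3 or PF sample 1 or 2, with fold changes of 0.15 to 0.18 and adjusted p-values of 0.119 to 0.149. The Mvd call was lost without the same samples, with fold changes of 0.11 to 0.16 and adjusted p-values of 0.0773 to 0.114. The Insig2 call was lost without Ctrl sample 2 or 3 or PF sample 2 or 3, with fold changes of -0.28 to -0.17 and adjusted p-values of 0.0572 to 0.128. The Fdps call was lost without Ctrl sample 1 or PF sample 2, at 0.13 and 0.11, with adjusted p-values of 0.0614 and 0.0547. The Cyp51 call was lost without PF sample 3, at 0.10, with an adjusted p of 0.0534. Mylip, tested only here, had a log2 fold change of -0.04 with a 95% interval of -0.30 to 0.22.

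**Figure D4:**
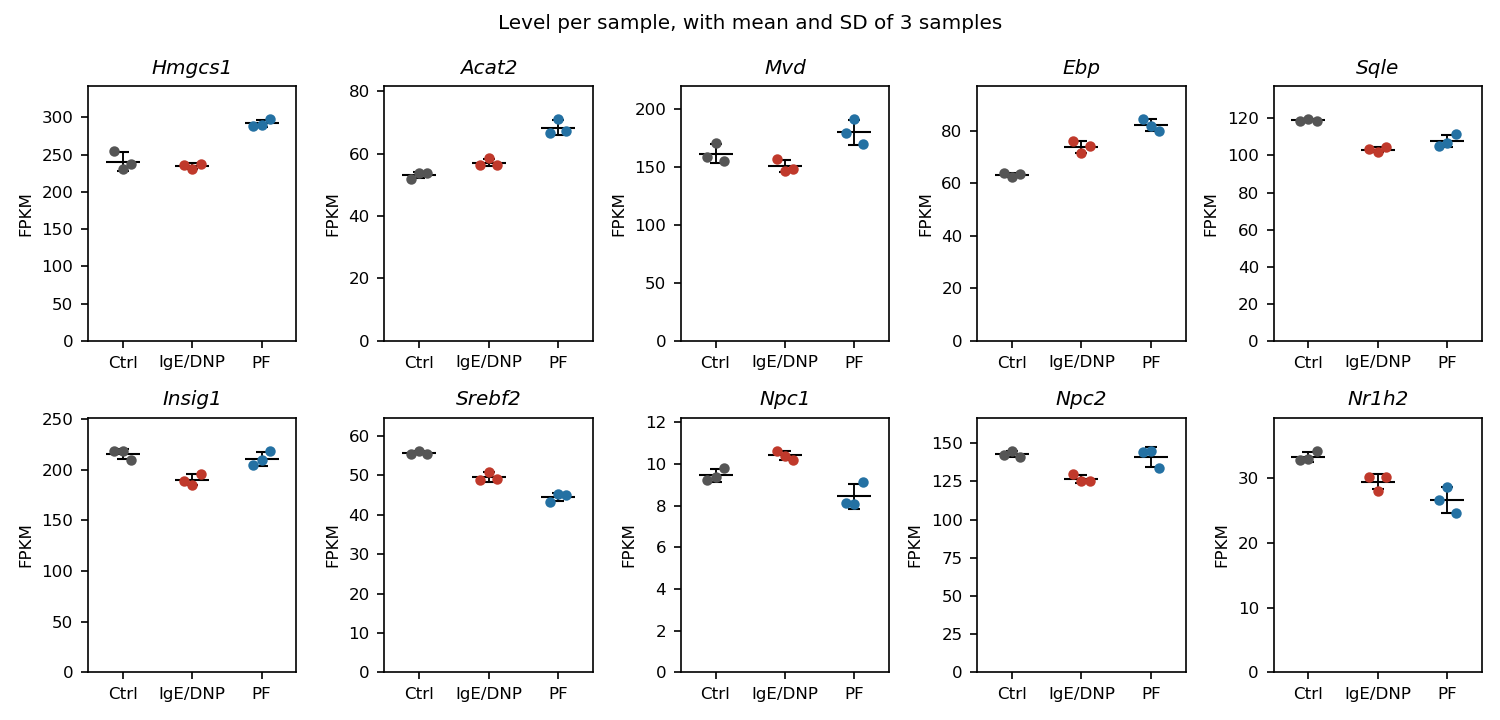
Level in FPKM (y axis, from 0) of 10 of the genes in the 3 Ctrl, 3 IgE/DNP and 3 PF samples, with the mean (horizontal line) and SD (bars) of each group. Hmgcs1, Acat2 and Mvd are highest in PF, Ebp steps up and Srebf2 steps down from Ctrl to IgE/DNP to PF, and Npc1 is lowest in PF.

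The stimulation times given for the PF samples differ in one field, so both PF comparisons were also run with PF sample 1 alone, the sample given 4 h in both fields. The spread of the PF group then came from the other group's samples, on the assumption that the lone sample varies like them. In PF vs IgE/DNP 10 members passed in place of 17, and 35.6% of all genes tested in place of 48.8%. In PF vs Ctrl 7 passed in place of 14, and 39.4% of all genes in place of 57.7%.

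The wider pathway was described by a list of 68 further genes, of which 66 had a value and 57 were tested. In IgE/DNP vs Ctrl 9 were higher and 9 lower (31.6% called, against 29.2% of all genes tested), in PF vs IgE/DNP 13 and 19 (56.1% against 48.8%), and in PF vs Ctrl 14 and 21 (61.4% against 57.7%). In each comparison the highest and the lowest of these had larger fold changes than any of the 32 genes. Fasn, fatty acid synthase, had 30.35, 32.67 and 28.19 FPKM in Ctrl, 35.73, 38.32 and 35.03 FPKM in IgE/DNP and 59.54, 58.11 and 58.54 FPKM in PF. It was highest in PF, with no overlap between any groups, and rose by 0.68 in PF vs IgE/DNP (SE 0.0415, adjusted p = 3.65e-06 by limma) and by 0.93 in PF vs Ctrl (SE 0.0546, adjusted p = 4.08e-06 by limma).

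Of 8 tested genes of sterol transfer between membranes, 0 were higher and 7 lower in PF vs IgE/DNP as deposited. With median ratios 5 were lower and with equal sums 7. Under these 3 settings 30.7%, 25.2% and 41.7% of all genes tested were lower. In PF vs Ctrl 0 were higher and 6 lower, against 34.6% of all genes lower. Of the groups in the wider list, this one had the largest share lower in both comparisons. In PF vs IgE/DNP sterol synthesis helpers had 5 higher and 2 lower, fatty acid synthesis 3 and 1, and isoprenoid branches 2 and 1. SREBP processing and INSIG turnover had 1 and 2, uptake and lysosomal release 1 and 3, and efflux and LXR partners 1 and 3. The 1 oxysterol enzyme tested was not called. Gramd1b, which carries cholesterol from the plasma membrane to the endoplasmic reticulum, had 33.56, 32.06 and 34.56 FPKM in Ctrl, 42.20, 48.64 and 44.23 FPKM in IgE/DNP and 20.30, 19.50 and 21.00 FPKM in PF. It rose by 0.42 in IgE/DNP vs Ctrl (SE 0.0564, adjusted p = 0.0013 by limma) and fell by 1.11 in PF vs IgE/DNP (SE 0.0566, adjusted p = 1.36e-06 by limma). Osbpl5, an oxysterol-binding-protein-like gene, followed the same order of groups, with means of 9.83, 13.5 and 6.41 FPKM. Abcg4, a relative of Abcg1, had 10.91, 10.16 and 9.82 FPKM in Ctrl, 7.32, 7.89 and 7.46 FPKM in IgE/DNP and 4.46, 4.14 and 4.53 FPKM in PF, and fell by 1.07 in PF vs Ctrl (SE 0.0666, adjusted p = 5.23e-06 by limma). Unlike Abcg1, its groups did not overlap.

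In IgE/DNP vs Ctrl, Ubxn8 fell by 0.74 and Acly, ATP citrate lyase, fell by 0.34, while Lrp8, a lipoprotein receptor, rose by 0.45 and Osbpl5 by 0.42. Acly, which makes the acetyl-CoA that feeds both cholesterol and fatty acid synthesis, had means of 540, 427 and 451 FPKM in Ctrl, IgE/DNP and PF. In PF vs Ctrl, Ubxn8 fell by 0.73 and Osbpl2 by 0.72. In PF vs IgE/DNP, Osbpl5 fell by 0.97, Abcg4 by 0.67, and Lrpap1, a chaperone of lipoprotein receptors, rose by 0.25. All of these values had adjusted p-values below 0.05 by limma.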

How the data were processed

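By the paper's methods and the submitters' processing notes, the authors filtered the reads, mapped them with HISAT2 2.0.4 to rat build rn6, aligned them to transcripts with Bowtie2 2.2.5 and quantified genes with RSEM 1.2.12. The labels name Illumina protocols, the paper a BGISEQ-500. The deposited values, 1 per gene and sample, name no unit and were read as FPKM from their decimals and unequal sums. Each sample listed 38490 gene rows, 20484 without a value. FPKM keeps no read numbers, so depth and counting error are unknown and precision rests on 3 samples a group.

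Members and the lists of other genes were chosen with earlier results of these data known. Each comparison was fitted on its own 6 samples with limma 3.58.1 in R 4.3.3 (lmFit, eBayes with trend) on log2(FPKM + 1), with Benjamini-Hochberg adjustment over all genes tested. The test was checked on simulated data. Exact permutation tests used scipy 1.17.1. Full values were given by rule for Hmgcs1, Sqle, Insig1, Insig2, Srebf1, Srebf2, Abca1, Abcg1, Nr1h3, Mylip and for any called member changed by at least 0.5 (there was none). The deposited gene identifiers of these 10 genes were, in that order, 29637, 29230, 64194, 288985, 78968, 300095, 313210, 85264, 58852 and 306825. Of the other pathway genes, the 3 highest and 3 lowest called in each comparison were named, apart from some that are not reported here. Other members were given in full after their values were seen. Promoter windows came from RefSeq GRCr8, and no coordinate was carried over from rn6. Alternatives were a pseudocount of 0.1, no filter, all 3 groups in 1 fit, the replicate number as a block, scaling by median ratios and to the mean of the deposited sums, no trend, a threshold of 0.01, and each sample left out. A fit with PF sample 1 alone was added after seeing the data.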

Additional observations from a re-analysis of the deposited data

How the results depend on the processing

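The labels link samples of different groups by replicate number only. The correlation of same-numbered samples' deviations ranged from -0.0739 to 0.0514 in IgE/DNP vs Ctrl, from -0.0822 to 0.000490 in PF vs IgE/DNP and from 0.0830 to 0.189 in PF vs Ctrl. Differently numbered samples gave -0.129 to 0.0290 in PF vs Ctrl, and whether samples were paired there was not tested. With a replicate block the members called numbered 7, 15 and 15, against 7, 17 and 14. At a threshold of 0.01, 11 members passed in PF vs IgE/DNP and 8 in PF vs Ctrl, and with PF sample 1 alone 10 and 7 passed. With 1 sample left out, the counts ranged over 5 to 8, 13 to 15 and 10 to 14. A pseudocount of 0.1, no filter, all 3 groups in 1 fit and no trend each left the counts within 1.5 times.

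The group medians in PF moved with scaling. With median ratios the medians of the synthesis enzymes, the SREBP regulators and the efflux and transport genes were 0.151, 0.0364 and -0.0651 in PF vs IgE/DNP and 0.145, 0.0342 and -0.0094 in PF vs Ctrl, and with equal sums -0.0103, -0.121 and -0.224 and -0.0022, -0.113 and -0.115. The median of the efflux and transport genes in PF vs IgE/DNP was -0.00026 without a filter and -0.013 with only Abca1, Abcg1, Nr1h2, Nr1h3 and Mylip, a restriction that gave -0.141 in IgE/DNP vs Ctrl. With PF sample 1 alone the synthesis median was 0.0633 in PF vs IgE/DNP and the SREBP regulator median -0.0755 in PF vs Ctrl. With 1 sample left out, the SREBP regulator median ranged from -0.0966 to 0.0476 and the efflux median from -0.0324 to 0.0102 in IgE/DNP vs Ctrl, the synthesis median from 0.0859 to 0.106 in PF vs IgE/DNP, and the synthesis and efflux medians from 0.0600 to 0.109 and from -0.125 to -0.0411 in PF vs Ctrl.

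The genes that changed sign had values within 0.1 of 0 as deposited, and Dhcr7 in PF vs IgE/DNP with equal sums, at -0.0103, was the 1 called value among them. In that comparison and setting, Lss was at -0.0866, Msmo1 at -0.0132, Nsdhl at -0.0261, Scap at -0.0295 and Sqle at -0.0353. In PF vs Ctrl with equal sums, Abcg1 was at -0.0571, Dhcr7 at -0.0437, Idi1 at -0.0022, Nsdhl at -0.0706 and Srebf1 at -0.0388. With median ratios, Mvk was at 0.00021, Pmvk at 0.0364 and Srebf1 at 0.0364 in PF vs IgE/DNP, and Insig1 at 0.0342, Mvk at 0.0137, Npc2 at 0.0464, Stard4 at 0.0300 and Tm7sf2 at 0.0209 in PF vs Ctrl. With PF sample 1 alone, Lss was at -0.0505 in PF vs IgE/DNP, and Mylip at 0.0471, Npc2 at 0.0130 and Nsdhl at -0.0051 in PF vs Ctrl. With 1 sample left out, values in IgE/DNP vs Ctrl ranged from -0.0966 to 0.0476 for Insig2, -0.0690 to 0.0046 for Fdft1, -0.0643 to 0.0081 for Hmgcs1 and -0.0284 to 0.0548 for Mvk. Those in PF vs IgE/DNP ranged from -0.0676 to 0.0175 for Pmvk and -0.0160 to 0.0411 for Lss. Those in PF vs Ctrl ranged from -0.0411 to 0.0163 for Npc2, -0.0069 to 0.0276 for Nsdhl, -0.0055 to 0.0661 for Dhcr7, -0.100 to 0.0015 for Mvk and -0.0290 to 0.0529 for Abcg1. The cause of these changes was not tested. Depth is unknown here, so how precisely levels under 1 FPKM, such as those of Abca1, were measured cannot be given.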
